A study of Canis lupus familiaris with 2 samples.

Results

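Clusterin and apolipoprotein genes, 6 of 34981 gene names in one dog and of 19930 in the other, were followed through the cell classes of the normal canine neuroretina. They were *CLU* (clusterin), *CLUL1* (clusterin-like 1), *APOE*, *APOA1*, *APOD* and *ABCA1*, and all 6 were counted in both dogs. The genes were chosen on measured values of these cells, so their levels are given as a description, with no test. Single cells came from punches of neuroretina of 2 male dogs of normal or wild-type genotype, N350 and N354, both 40 weeks old, and no treatment is stated for either. Each mRNA molecule was tagged with a unique molecular identifier (UMI) in a droplet and counted once. The library of N350 held 24030707 UMIs in 8900 cells (median 1298 per cell), and that of N354 held 9711202 in 4392 cells (median 1204.5). The sources name no sort or gate of cells. The dogs were counted on different gene annotations that share 15224 names, so a difference between the dogs and a difference between annotations cannot be told apart.

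Clusterin is a secreted chaperone that binds misfolded proteins and lipids, and it is also known as apolipoprotein J. *CLUL1* encodes a related secreted protein known from retina. Apolipoproteins E, A-I and D carry lipids outside cells, and ABCA1 is the membrane transporter that loads cholesterol and phospholipid onto lipid-poor apolipoproteins. In neural tissue, glia are the best known source of lipoprotein particles, whereas apolipoprotein A-I of plasma is made mainly by liver and intestine.

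Cells were classed from the raw UMIs of 94 marker genes in 12 lists, none of which holds any of the 6 genes. N350 held 5544 rods, 266 cones, 282 bipolar cells, 264 amacrine cells, 1109 Müller glia and 133 astrocyte-like cells, and the same classes of N354 held 2973, 188, 238, 30, 525 and 60 cells. Only N350 had at least 20 horizontal cells (79) and endothelial cells (20), against 10 and 4 in N354. Microglia were 11 and 3 cells. Cells past more than 1 list, 405 in N350 and 69 in N354, were set aside as mixed, and 766 and 286 cells passed none. Lists of genes kept out of the gate existed for rods, Müller glia and endothelial cells only, and each summed highest in its own class. The Müller list made 254 and 381 UMIs per 10000 in Müller glia, against 149 and 226 in astrocyte-like cells. Its single genes did not all follow: in N350, astrocyte-like cells had 341% of the Müller level of *SOX9* and 139% of that of *CA2*. The rod genes *PDE6B*, *NRL*, *CNGB1*, *ROM1* and *GUCA1B* together made 97.6 and 124.8 UMIs per 10000 in the rods of N350 and N354, against 4.55 and 7.28 in Müller glia. The astrocyte-like cells were led by *WFDC2*, *CAPS* and *FGG*. No cell passed the list of retinal pigment epithelium (RPE), whose 7 markers summed to 26 UMIs in N350, with *TYR* at 0, and to 14 in N354, with *RPE65*, *TTR*, *TYR* and *LRAT* at 0.

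A level is the number of UMIs of a gene among 10000 UMIs of a class, from the pooled cells of that class in 1 dog. Brackets hold exact 95% Poisson intervals, which cover counting error only. The counts come from the 3′ end of transcripts and are not scaled by length, so levels are compared between classes for 1 gene and not between genes. Fewer transcripts in each cell and fewer transcribing cells within a class cannot be told apart from a summed level.

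*CLU* was a gene of both glial classes. Its level in Müller glia, the radial glia that span the retina, was 49.0 [48.5, 49.5] in N350 and 38.4 [37.7, 39.0] in N354 (43.7 ± 7.50, SD, n = 2 dogs). The astrocyte-like cells stood above them in both dogs, at 69.0 [67.2, 70.9] and 55.6 [52.8, 58.5], or 1.41 and 1.45 times the Müller level, with intervals of the ratio of 1.37 to 1.45 and 1.37 to 1.53. Because Müller glia were far more numerous, they held 73.9% and 81.8% of all *CLU* UMIs, against 10.6% and 9.60% for the astrocyte-like cells. Nearly every Müller cell carried the transcript: 98.5% of those of N350 and 98.9% of those of N354 had at least 1 *CLU* UMI.

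Neurons were low for *CLU* in both dogs. Cones had 0.818 [0.675, 0.983] and 0.813 [0.607, 1.07], bipolar cells 1.12 [0.884, 1.39] and 0.253 [0.141, 0.417], and amacrine cells 0.768 [0.651, 0.900] and 0.177 [0.0482, 0.453]. Rods had 2.63 [2.50, 2.75] in N350 and 0.533 [0.460, 0.614] in N354. The rod level of N354 was thus 0.203 times that of N350, while the cone level did not differ beyond counting error. In the 20 endothelial cells of N350, cells of the vessel lining, *CLU* reached 45.8 [41.5, 50.4], which was not apart from Müller glia (ratio of Müller to endothelial 1.07, interval 0.971 to 1.18).

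**Figure D1:**
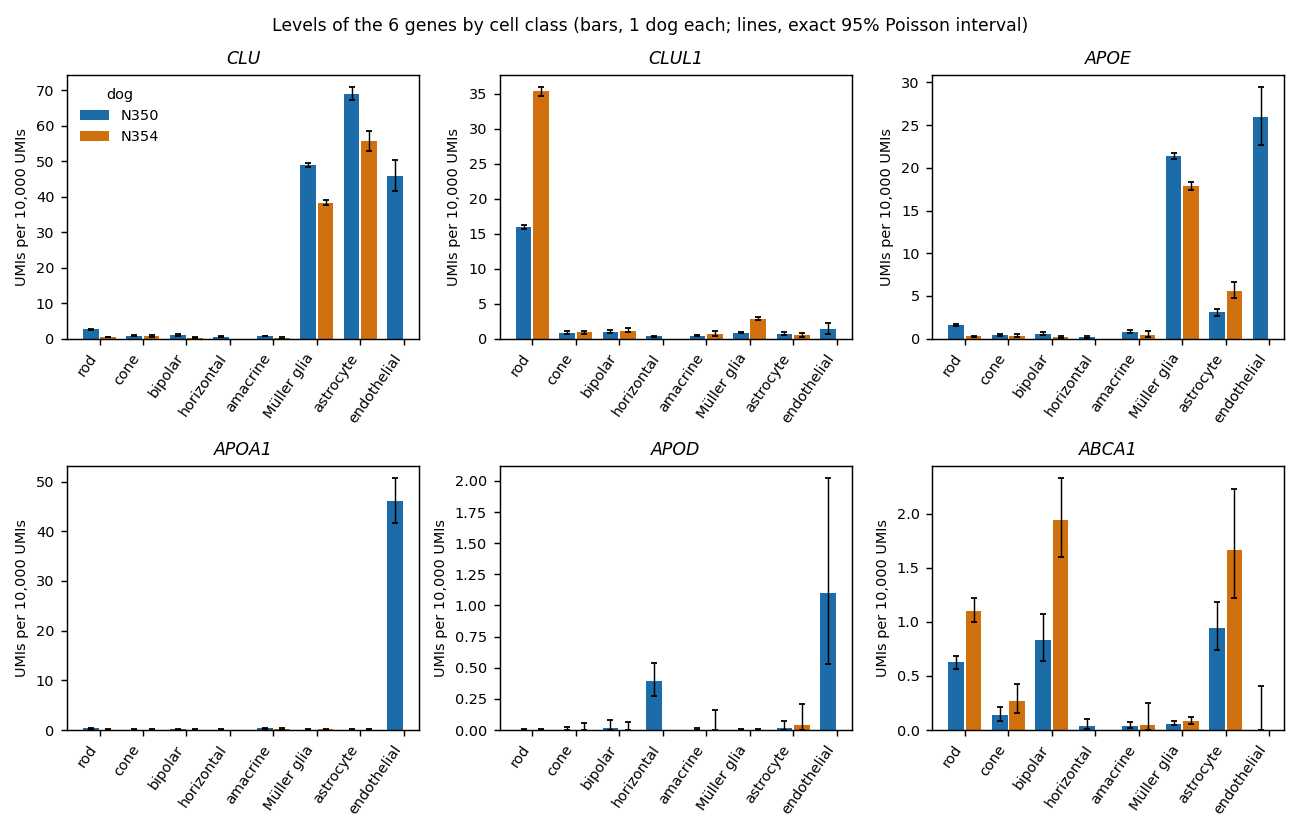
Levels of the 6 genes in UMIs per 10000 UMIs (linear axes from 0) in 8 cell classes, 1 panel per gene. Bars are single dogs, N350 in blue and N354 in orange, lines are exact 95% Poisson intervals, and classes under 20 cells in a dog have no bar. *CLU* and *APOE* stand in glia and in endothelial cells of N350, *CLUL1* in rods, and *ABCA1* in bipolar cells, astrocyte-like cells and rods. Among the classes shown, *APOA1* stands in endothelial cells of N350, but mixed cells, which have no bar, held 86.7% of its UMIs in that dog.

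*CLUL1* had the reverse distribution and was a gene of rods. Rods, the photoreceptors of dim light, had 15.96 [15.7, 16.3] in N350 and 35.3 [34.7, 35.9] in N354 (25.6 ± 13.7, SD, n = 2 dogs). Rods held 85.6% and 88.2% of all *CLUL1* UMIs, and 70.9% of the rods of N350 and 88.3% of those of N354 had at least 1. No other class reached 3 per 10000 in either dog among classes with at least 20 cells. Cones, the photoreceptors of daylight and colour, had 0.868 [0.720, 1.04] and 0.891 [0.675, 1.15], so the level in rods was 18.4 times that in cones in N350 (interval 15.4 to 22.2) and 39.6 times in N354 (30.6 to 52.3).

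Among photoreceptors, then, *CLUL1* followed rods, and cones lay within the range of the non-photoreceptor classes. In N350 cones did not differ from Müller glia beyond counting error (ratio 1.04, interval 0.852 to 1.27), and in N354 they were below them (0.309, interval 0.232 to 0.404). Bipolar cells had 0.976 and 1.16, amacrine cells 0.429 and 0.663, and astrocyte-like cells 0.719 and 0.482. Neighbours in this low range were mostly not apart in either dog. Cones of both opsin types were low: cones with *OPN1SW*, the opsin for short wavelengths, above *OPN1LW* had 0.924 [0.538, 1.48] in 34 cells of N350 and no *CLUL1* UMI in 14 cells of N354, which allows up to 0.464. Cones with *OPN1LW*, the opsin for longer wavelengths, and no *OPN1SW* had 0.827 [0.648, 1.04] in 134 cells and 0.832 [0.599, 1.12] in 108 cells. In N354 the 66 cones with neither opsin had 2.14 [1.20, 3.53].

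*CLUL1* and *CLU* were then set against each other within each class. Of the UMIs of both genes, *CLUL1* made 85.9% [85.2, 86.5] in the rods of N350 and 98.5% [98.3, 98.7] in those of N354 (exact binomial 95% intervals). In Müller glia it made 1.67% [1.54, 1.80] and 6.99% [6.57, 7.43], and in astrocyte-like cells 1.03% [0.777, 1.34] and 0.859% [0.458, 1.46]. In cones it made 51.5% [44.9, 58.0] and 52.3% [42.5, 62.0]. In the *OPN1LW* cones without *OPN1SW* the share was 59.8% [50.6, 68.6] in N350 and 85.7% [72.8, 94.1] in N354. In the cones with *OPN1SW* above *OPN1LW* it was 32.1% [19.9, 46.3] and 0 of 20 UMIs. These last values rest on few cells, as 1 cone held 20 of the 36 *CLU* UMIs of N350 and 3 cones held all 20 of N354. The intervals take UMIs as independent, so a difference between opsin types was not established. These shares are of UMIs and do not set the level of one gene against the other. By single cells, 3298 of the 5544 rods of N350 had *CLUL1* without *CLU*, 361 had *CLU* without *CLUL1* and 631 had both. The same counts in the 2973 rods of N354 were 2532, 16 and 92. From class to class, *CLU* in Müller glia was 18.7 times its level in rods in N350 (17.8 to 19.6) and 72.0 times in N354 (62.4 to 83.6), and *CLUL1* in rods was 19.2 times its level in Müller glia (17.7 to 20.8) and 12.2 times (11.5 to 13.1).

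**Figure D2:**
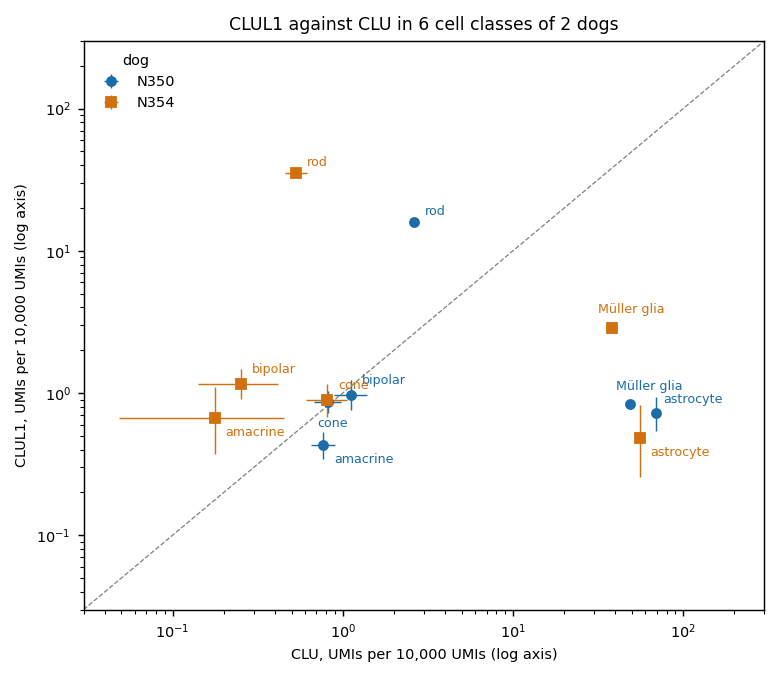
*CLUL1* against *CLU* in UMIs per 10000 UMIs (both axes logarithmic) for the 6 classes with at least 20 cells in both dogs. Points are N350 (circles) and N354 (squares), and lines are exact 95% Poisson intervals. The dashed line marks equal numbers on both axes and is a guide only, because levels are not compared between genes. Rods are highest for *CLUL1*, near 15.96 and 35.3, while Müller glia and astrocyte-like cells are highest for *CLU*.

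The low levels outside the main class were compared with other genes of that class, because free RNA of dissociated cells can enter droplets. Free RNA of 1 source alone would keep its genes in 1 ratio, and the genes compared here did not share 1 ratio. The *CLU* level of rods was 5.36% of the Müller level in N350 and 1.39% in N354, and that of *APOE* 7.32% and 1.49%. Of other glial transcripts, *VIM* had 5.89% and 1.74%, *CRYAB* 6.20% and 2.15% and *CA2* 14.1% and 4.49%, while *CD9* (5.04%) and *SOX9* (1.71%, from 5 UMIs in rods) gave a usable value in N350 only. In N350 *CLU* in rods lay inside the range of these genes, and *APOE* lay above all of them but *CA2*. *CA2* was not confined to glia. Its level in horizontal cells of N350 was 254% of the Müller level, and in amacrine cells 95.3% in N350 and 57.2% in N354. In N354 *CLU* and *APOE* in rods both lay below *VIM*, *CRYAB* and *CA2*. All of the genes with a value in both dogs were lower in N354. *CLU* in rods moved with mitochondrial reads as well. Rods of N350 at or below the median share of mitochondrial UMIs had 1.26 [1.14, 1.39] *CLU* per 10000 and those above it 3.87 [3.67, 4.08], and in N354 the values were 0.293 [0.214, 0.392] and 0.713 [0.602, 0.839]. In Müller glia the order of *CLU* was reversed, with 52.4 below and 42.9 above the median in N350 and 39.2 and 37.3 in N354. The rise in rods was not particular to *CLU*, but not all of the 6 genes shared it. *APOE* in rods had 0.683 at or below the median and 2.37 above it in N350, and 0.111 and 0.384 in N354. *ABCA1* did not rise, with 0.658 and 0.595 in N350 and 1.17 and 1.05 in N354, with overlapping intervals. *CLUL1* had 14.3 [13.8, 14.7] in rods at or below the median and 17.5 [17.1, 17.95] above it in N350. In N354 its values were 25.2 [24.4, 26.0] and 43.0 [42.1, 43.9]. The part of free RNA in the *CLU* and *APOE* of neurons was not tested.

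In cones, *CLUL1* was 5.44% of the rod level in N350 and 2.52% in N354. Of the rod genes, *NRL*, the transcription factor of rod fate, stood at 4.47% and 3.84% there, *GUCA1B* at 4.40% and 12.7%, *CNGB1* at 9.91% and 9.84%, *PDE6B* at 15.6% and 14.9% and *ROM1* at 21.5% and 19.4%. *CLUL1* was thus near the low end of the rod genes in cones. In Müller glia *CLUL1* was 5.21% [4.80, 5.65] of the rod level in N350, beside 4.06% to 4.99% for *CNGB1*, *GUCA1B*, *PDE6B*, *NRL* and *ROM1*. In N354 it was 8.17% [7.64, 8.73], beside 4.88% to 7.44% for the same genes, so it stood above each of them in both dogs, with overlapping intervals for some. By single cells, 26.3% and 33.1% of Müller glia had a *CLUL1* UMI at medians of 5895 and 5898 UMIs per cell, while rods had medians of 1051.5 and 1017. After thinning every cell to 1000 UMIs, which leaves out shallower cells, the shares were 74.3% and 92.5% in rods and 9.23% and 16.7% in Müller glia. The part of rod RNA in the *CLUL1* of Müller glia was not tested.

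**Figure D3:**
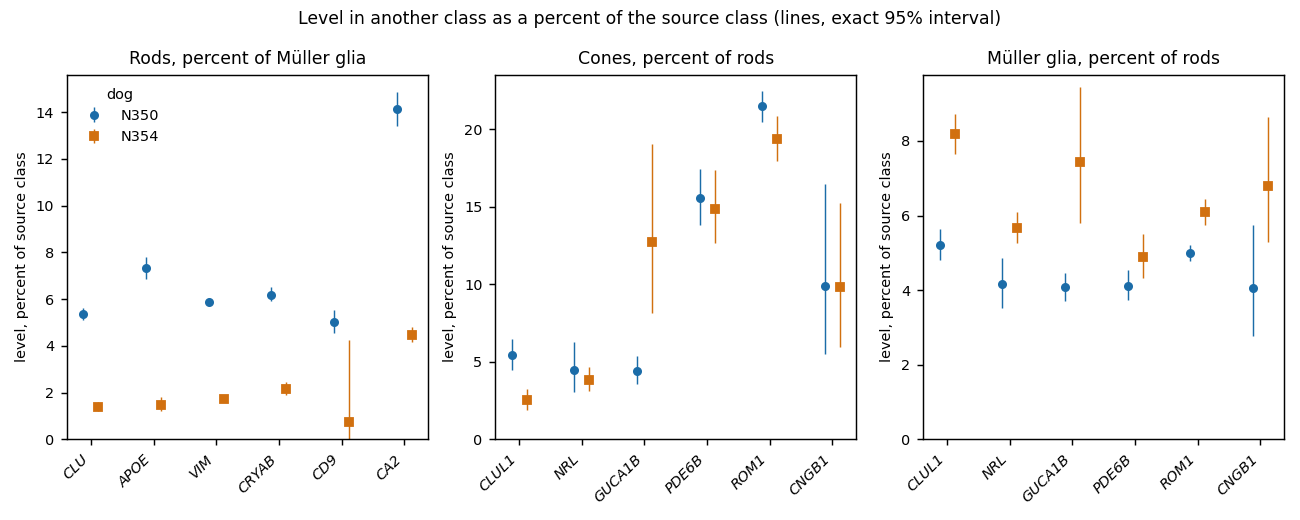
Level of a gene in another class as a percent of its level in the source class (linear axes from 0), with rods against Müller glia, cones against rods and Müller glia against rods. Circles are N350, squares N354 and lines exact 95% intervals of the ratio. In rods of N350 *CLU* lies among *CD9*, *VIM*, *CRYAB* and *CA2*, and *APOE* lies above all of these but *CA2*. In rods of N354 both lie below *VIM*, *CRYAB* and *CA2* (*CD9* of N354 is 1 UMI). *CLUL1* in cones, at 5.44% and 2.52%, lies below *CNGB1*, *PDE6B* and *ROM1*.

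*CLU* in cones was carried by few cells. In N354, 17 of 188 cones held its 52 UMIs, and the 108 cones with *OPN1LW* and no *OPN1SW* had only 7, or 0.139 [0.0557, 0.286] per 10000. The 14 cones of N354 with *OPN1SW* above *OPN1LW* had 3.09 [1.89, 4.78], from 3 cells of which 1 held 10 UMIs, and 34 such cones of N350 had 1.96 [1.37, 2.71], of which 1 cell held 20 of 36 UMIs. *VIM*, the glial filament gene, was at 26.5 per 10000 in these 14 cones of N354 and at 1.37 in the 108 others. In the 14 cones its 171 UMIs lay in 4 cells, of which 1 held 66. In N350 *VIM* was at 4.78 in the 34 cones and at 2.56 in the 134 *OPN1LW* cones without *OPN1SW*, a smaller step than that of *CLU*, which was 0.555 in the latter. As 1 of the 34 cones held 57 of their 88 *VIM* UMIs, the sizes of both steps depend on single cells. The 66 cones of N354 with neither opsin also had more *CLU*, at 3.57 [2.31, 5.26], and *VIM* at 21.8. The part of glial RNA in the *CLU* of these cones was not tested.

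*APOE* was highest, among the classes with at least 20 cells in both dogs, in Müller glia. Its level there was 21.4 [21.1, 21.7] in N350 and 17.8 [17.4, 18.3] in N354 (19.6 ± 2.53, SD, n = 2 dogs), and these cells held 77.9% and 88.0% of its UMIs. At least 1 UMI was found in 95.9% and 93.3% of Müller glia. The astrocyte-like cells, which led for *CLU*, were far lower for *APOE*, at 3.098 [2.72, 3.52] and 5.63 [4.77, 6.61]. Müller glia thus had 6.91 times the *APOE* of astrocyte-like cells in N350 (6.08 to 7.89) and 3.17 times in N354 (2.69 to 3.74), whereas for *CLU* the order of these glia was the other way round in both dogs.

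Beyond Müller glia, *APOE* was found in the scarce non-neural cells. The 11 microglia of N350, the resident macrophages, had 66.1 [59.2, 73.7] per 10000 with the transcript in all 11, and the 3 microglia of N354 had 186 [135, 251] from 43 UMIs. The 20 endothelial cells of N350 had 25.9 [22.7, 29.4], which was 1.21 times the Müller level (1.06 to 1.38), and the 4 of N354 had 9.24 [5.47, 14.6]. Classes this small cannot carry a comparison between the dogs. All neurons were under 1 per 10000 except the rods of N350 at 1.57 [1.47, 1.66], against 0.266 [0.215, 0.325] in the rods of N354. Within Müller glia with at least 5000 UMIs, *CLU* and *APOE* levels of single cells were only loosely related (Spearman 0.147 over 607 cells of N350 and 0.158 over 304 of N354), which describes sparse counts that share a cell total and a library.

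*APOA1* UMIs were concentrated in a few cells, most of which carried vascular transcripts. Of the 7288 UMIs of N350, 95.5% lay in 30 cells with at least 10 each, and 82.9% lay in 6 cells with 530 to 1658 UMIs. In N354 3 cells held 594 of 695 UMIs, and 1 cell alone had 526. All 30 cells of N350 and all 3 of N354 also had a UMI of *IGFBP7*, a vascular gene kept out of the gate, 29 and 3 had an endothelial marker, and 27 and 2 had *RGS5*, a pericyte marker. Such UMIs were also found in other classes, as the endothelial gate markers summed to 4.81 and 11.1 per 10000 in Müller glia. Fewer cells passed a whole list. In N350, 20 of the 30 passed the endothelial list, 8 the pericyte list and 6 both. In N354, 2 of the 3 passed the endothelial list and 0 the pericyte list. By class, 12 of the 30 were mixed, 9 endothelial, 1 pericyte, 4 without a class and 4 rods, and of the 3 in N354 2 were endothelial and 1 without a class. The cutoff of 10 UMIs was set after the values had been seen.

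The 6 highest cells of N350 all passed the pericyte list and 1 or more other lists, and so counted as mixed. Of these, 3 passed the endothelial list besides, 2 the endothelial and the astrocyte list, and 1, with 648 UMIs, the cone list. Their levels ran from 363 to 737 per 10000. In 5 of the 6, 7 to 9 of the 9 endothelial markers had a UMI, the remaining one had 2, and all 6 had 3 to 6 of the 7 pericyte markers. The photoreceptor gene *SAG* had 0 or 1 UMI in each. Within the endothelial class, *APOA1* stood at 46.0 [41.7, 50.6] in the 20 cells of N350 and at 279 [256, 304] in the 4 cells of N354, of which 1 cell gave nearly all. With cells past the endothelial or pericyte list and no other taken as 1 class, a choice made after the values were seen, the level in N350 was 237 [229, 245] over 24 cells. That class holds 3 of the 6 highest cells and lacks those with 1658, 876 and 648 UMIs. With other lists allowed, it was 207 [202, 212] over 43 cells. The 7 endothelial cells of N350 with over 10% mitochondrial UMIs had 164 [146, 183] and those 13 at or below it 14.9 [12.2, 17.96]. The former also had 26.7 *SAG* UMIs per 10000 against 0.834 in the latter. *CLDN5*, an endothelial marker of the gate, had the opposite order to *APOA1*, with 31.5 in the former and 59.9 in the latter. In N354 the 2 endothelial cells over 10% had 1305 *APOA1* and no *SAG* or *CLDN5*. The 2 at or below it had 3.90 *APOA1*, 20.2 *SAG* and 1.30 *CLDN5*, the last from 2 UMIs. The 6 highest cells of N350 counted as mixed and so lie outside this split. Each of them had under 10% mitochondrial UMIs, unlike the endothelial cells of N350 with the higher *APOA1* level. The part of mitochondrial content in the *APOA1* levels was not tested.

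In every other class with at least 20 cells *APOA1* was at or under 0.313 per 10000 in both dogs. Müller glia had 0.0935 [0.0729, 0.118] and 0.105 [0.0732, 0.146] and rods 0.307 [0.266, 0.351] and 0.0869 [0.0590, 0.123]. In the rods of N350, 4 cells with 16 to 39 UMIs held 128 of 207, and the other 5540 had 0.117 [0.0928, 0.146], which did not differ from N354 beyond counting error. Outside the cells with 10 or more UMIs, 278 cells of N350 and 87 of N354 held the transcript, with at most 6 UMIs in any one of them.

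**Figure D4:**
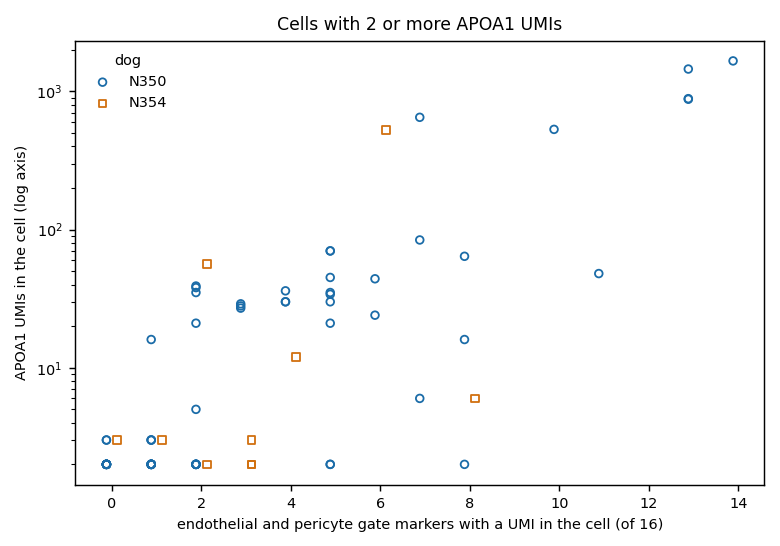
*APOA1* UMIs per cell (logarithmic axis) against the number of endothelial and pericyte gate markers, of 16, that have a UMI in the same cell. Each point is 1 cell with at least 2 *APOA1* UMIs, circles for N350 and squares for N354, and points at the same place overlie. The cells with 530 to 1658 UMIs have 7 to 14 of the markers, and cells with none of them have at most 3 UMIs.

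*APOD*, a lipocalin that binds small lipids, was rare. N350 had 98 UMIs in 60 cells and N354 only 2 UMIs in 2 cells. Horizontal cells, the lateral interneurons of the outer retina, held 38 of the 98 UMIs of N350, or 0.390 [0.276, 0.535] per 10000, in 26 of 79 cells (32.9%). In 9 of the 12 mixed cells with the transcript, the horizontal markers *ONECUT1* or *ONECUT2* were also present. The 20 endothelial cells of N350 had 1.10 [0.527, 2.02] from 10 UMIs. The 264 amacrine cells and 266 cones of N350 had none, which allows levels of up to 0.0152 and 0.0215.

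The 10 horizontal cells of N354 had no *APOD* UMI, which allows up to 0.355 per 10000, a value inside the interval of N350. A difference between the dogs in horizontal cells was therefore not detectable at this depth. Over all cells, the level was 0.0409 [0.0332, 0.0498] in N350 and 0.00207 [0.00025, 0.00746] in N354. A further 22 of the UMIs of N350 lay in 6 cells with 2 to 7 each that passed no list and had 4387 to 5807 UMIs. These 6 cells, singled out after their values were seen, had *GLRA3* (a glycine receptor subunit) at 4.12 and *KCTD16* at 12.98 per 10000, and they were given no name.

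*ABCA1* was lowest in Müller glia and amacrine cells among the classes of both dogs, in contrast to *CLU* and *APOE*. Müller glia had 0.0601 [0.0439, 0.0805] in N350 and 0.0810 [0.0534, 0.118] in N354. The astrocyte-like cells had 0.941 [0.736, 1.19] and 1.67 [1.22, 2.23], or 15.7 and 20.6 times the Müller level (10.6 to 23.2 and 12.5 to 34.5). Bipolar cells, which relay photoreceptor signals, had 0.836 [0.638, 1.08] and 1.94 [1.60, 2.33]. In neither dog were bipolar and astrocyte-like cells apart.

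Rods came next for *ABCA1*, with 0.625 [0.567, 0.688] and 1.10 [0.998, 1.22], and by their number held 61.1% and 61.4% of its UMIs. Cones had 0.136 [0.0821, 0.213] and 0.266 [0.155, 0.426]. The rod level was 4.59 times that of cones in N350 (2.90 to 7.70) and 4.16 times in N354 (2.56 to 7.21), and 10.4 and 13.6 times that of Müller glia. The next class above rods, bipolar cells in N350 and astrocyte-like cells in N354, exceeded them by only 1.34 times (1.003 to 1.76) and 1.51 times (1.08 to 2.06). Cones in turn exceeded Müller glia by 2.27 times (1.25 to 3.96) and 3.28 times (1.68 to 6.24), and Müller glia and amacrine cells were not apart in either dog. All 6 classes had higher *ABCA1* levels in N354 than in N350, by 1.25 to 2.32 times. The intervals of the dogs overlapped in cones, Müller glia and amacrine cells, however. Amacrine cells had 0.0354 [0.0142, 0.0729] from 7 UMIs in N350 and 0.0442 [0.00112, 0.246] from 1 UMI in N354. Few single cells showed the transcript: 6.82% and 10.9% of rods and 36.8% and 48.3% of astrocyte-like cells had a UMI, and after thinning to 1000 UMIs the shares were 5.93% and 9.05% of rods, 8.68% and 15.995% of astrocyte-like cells and 0.663% and 0.947% of Müller glia.

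Genes whose pattern over the 6 classes was closest to each of the 6 were read from 8192 genes of both dogs outside the gate, as a description over 6 points. For *CLU* they were *GPX8*, *SPARCL1* (a matricellular protein of astrocytes), *AIF1L*, *MLC1* (a membrane protein of astrocytes) and *ZFP36*, with Pearson r of at least 0.990 in each dog. For *CLUL1* they were *TFPI2*, *GRK1* (a photoreceptor kinase), *SLC24A1* (the ion exchanger of the rod outer segment), *EMB* and *ALPL*, at 0.971 or more. *APOE* had *SFRP1* (a secreted WNT antagonist), *DUSP16*, *OLFM2*, *PRPSAP1* and *F3*, at 0.969 or more. The closest to *ABCA1* were *LAS1L*, *PCF11*, *UNK*, *SOX4* and *PKN2*, at 0.902 or more. *APOA1*, with *NOL9*, *FAM168B*, *EXOC2*, *USP13* and *DNAJC19* at 0.849 or more, was near 0 in all 6 classes, so its list rests on a few UMIs, and *APOD* was not compared.

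The other genes of lipid transport were tested with edgeR's quasi-likelihood test on UMIs summed per dog and class. The main fit had no term for the dog, and its p-values are those printed. Of 43 listed genes (receptors, efflux and liver X receptor genes, other apolipoproteins, particle and sterol enzymes, and cholesterol synthesis), 32 were tested. The lists were chosen with earlier results of these data known, so the p-values of their genes are no independent test. Müller glia over rods called 3 of the 32 higher, against 10.1% of all 11888 genes tested, and 2 lower, against 3.95%, which are shares near those of all genes. The fit scales the sums by TMM (trimmed mean of M values), which raised log2 ratios of Müller glia over rods by 0.57 to 0.59 over those of the levels per 10000 UMIs. On that scale all genes had a median log2 fold change of 0.09 and the 32 of -0.09. By list, 3 of 8 particle and sterol enzymes were higher, and 1 of 4 other apolipoproteins and 1 of 7 efflux and liver X receptor genes were lower. None of 7 receptors and none of 6 cholesterol synthesis genes was called in this fit. A fit with the dog as a block called more genes, as given below.

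The enzymes were *CYP27A1*, *NPC2* and *PLTP*. The SE given here is the log2 fold change without its sign, divided by the square root of the F statistic of the test. *CYP27A1*, the sterol 27-hydroxylase, had 0.612 and 0.561 UMIs per 10000 in Müller glia against 0.0459 and 0.00280 in rods (log2 fold change 5.10, SE 1.11, edgeR adjusted p = 0.0198). *NPC2*, which moves cholesterol out of lysosomes, had 1.87 and 3.62 against 0.322 and 0.230 (3.93, SE 0.77, adjusted p = 0.0139). *PLTP*, the phospholipid transfer protein, had 0.421 and 0.276 against 0.0696 and 0.0505 (3.15, SE 0.74, adjusted p = 0.0259). In each of these genes both dogs were higher in Müller glia, and astrocyte-like cells also exceeded rods, at 0.248 and 0.445 for *CYP27A1*, 1.10 and 4.08 for *NPC2* and 0.915 and 0.890 for *PLTP*.

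Lower in Müller glia than in rods were *APOC1* and *ABCG4*. *APOC1*, the neighbour of *APOE* on chromosome 1 in the RefSeq annotation of UU_Cfam_GSD_1.0, was a photoreceptor transcript here. Its levels were 29.2 [28.8, 29.6] and 45.4 [44.7, 46.1] in rods, 38.1 [37.1, 39.2] and 56.7 [54.8, 58.5] in cones and 1.93 [1.83, 2.03] and 3.88 [3.67, 4.10] in Müller glia (Müller glia over rods -3.05, SE 0.51, edgeR adjusted p = 0.00805). *APOC1* and *APOE* thus had opposite distributions, and *APOC1* did not share the rod preference of *CLUL1* (cones over rods 0.48, SE 0.47, adjusted p = 0.891). *ABCG4*, a transporter that passes cholesterol to lipoprotein particles, had 0.803 and 1.91 in rods against 0.0762 and 0.180 in Müller glia (-2.77, SE 0.69, adjusted p = 0.0330). Among the 6 genes themselves, the fit gave, with no test, log2 fold changes for Müller glia over rods of 5.39 for *CLU*, 5.02 for *APOE*, -3.15 for *CLUL1* and -2.97 for *ABCA1*.

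Cones over rods called 1 of the 32 genes higher, against 1.03% of all genes tested, and 0 lower, against 0.379%. At an unadjusted p under 0.05 there were 5 of the 32 in either direction, against 10.0% of all genes, and DESeq2 called 1 higher and 1 lower, against 4.14% and 1.30%. The gene was *LRP2* (megalin), a large receptor that takes up apolipoproteins and other ligands, with 0.782 [0.642, 0.943] and 0.954 [0.729, 1.23] in cones and 0.0119 and 0.00841 in rods (log2 fold change 6.43, SE 1.04, edgeR adjusted p = 0.0226). Its level was 0.444 and 0.259 in astrocyte-like cells and 0.00535 and 0.00600 in Müller glia. With the dog as a replicate block, 6 of the 32 were higher and 10 lower for Müller glia over rods, against 31.1% and 22.3% of all genes. DESeq2 called 4 higher and 3 lower there, against 16.1% and 7.88%. With the block, for cones over rods 2 were higher and 6 lower, against 9.69% and 7.87%, and the 6 genes named above kept their calls and directions.

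**Figure D5:**
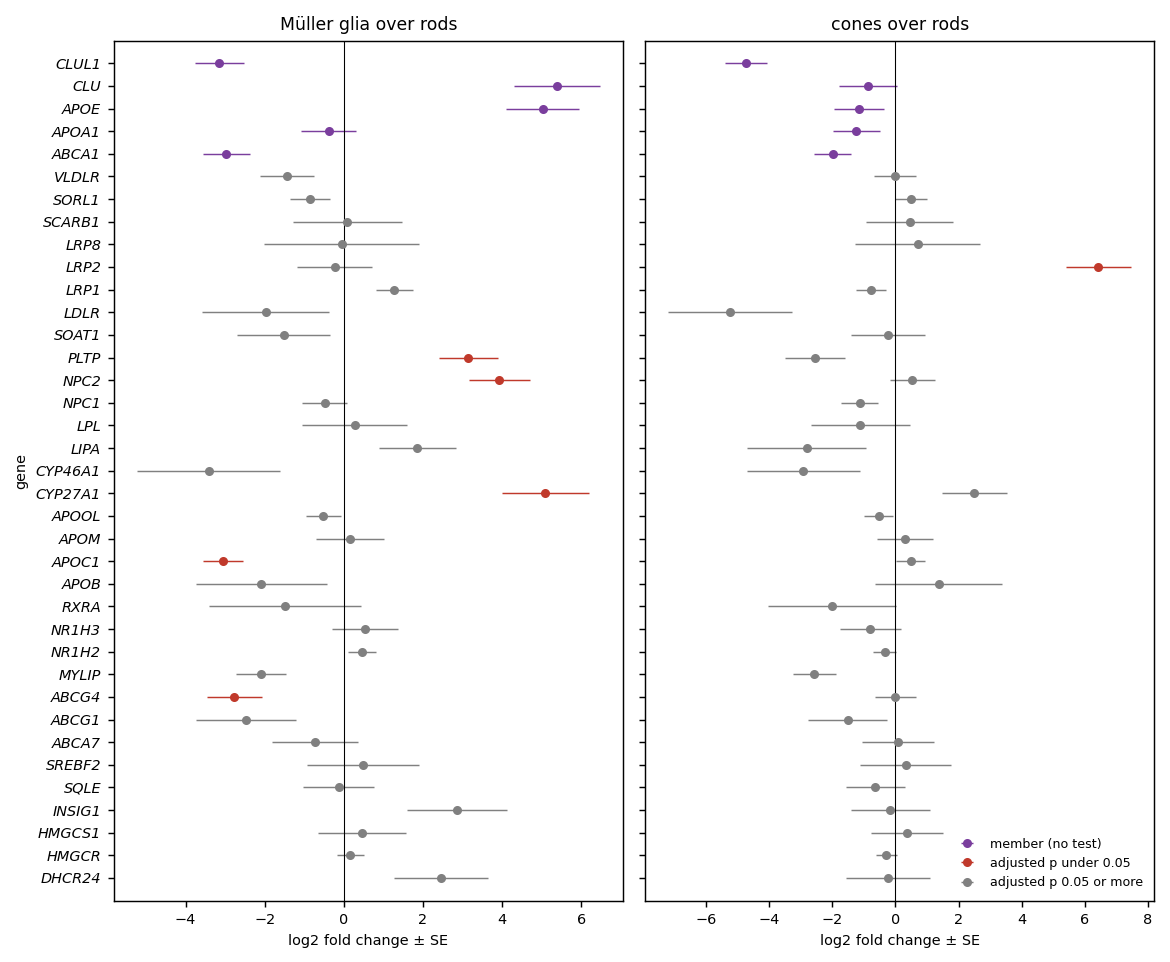
Log2 fold change ± SE from the edgeR fit over 6 classes of 2 dogs, for Müller glia over rods and cones over rods (linear axes). Red points are genes of lipid transport with an adjusted p under 0.05, grey points those at or above it, and purple points 5 of the 6 genes described here. The SE is derived from the F statistic of the fit, and the lines on the purple points are not to be read as a test. *CYP27A1*, *NPC2* and *PLTP* lie to the right and *APOC1* and *ABCG4* to the left for Müller glia, and *LRP2* alone is red for cones.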

How the data were processed

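Neuroretinal punches of 2 normal dogs were dissociated with trypsin and a neural tissue kit, captured with a 3′ droplet kit and sequenced. The authors counted UMIs with Cell Ranger (6.0.2 in the file header), and the deposited values are raw counts per gene and cell, unnormalized. The paper names the dog genome; the gene annotation is not given in the sources used here. In N354, 17 names occurred more than once and were summed. Of 13292 cells, those with at least 200 genes were kept, 8895 in N350 and 4387 in N354, and 6 barcodes occur in both dogs. The study's limit of 5% mitochondrial content, read on names that start with MT-, would leave 10264 cells. It was not applied, because N350 has 1 such name, no mitochondrial gene, and N354 has 12, so it removes cells of N354 only. Doublet calling by Scrublet (scanpy 1.11.5) marked 0% and 0.0455% of cells, so it had not worked, and cells past more than 1 marker list were left out instead.

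The 6 genes, the marker lists and the lists of lipid transport were chosen with earlier results of these data known. A cell passed a list with at least 3 distinct markers and a share of UMIs at least 3 times that of its dog (1 time for rods and Müller glia). These thresholds were set on marker genes after the data had been seen. Of 94 markers, 94 were used in N350 and 89 in N354. Classes with at least 20 cells were described. The 95% intervals are exact and reflect counting error alone, and where no UMI was found the limit given is 3 counts (Python 3.11.15, scipy 1.17.1). Shares after thinning to 1000 UMIs are hypergeometric expectations.

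Summed counts were tested with edgeR 4.0.16 (TMM, quasi-likelihood, Benjamini-Hochberg over all genes with at least 10 UMIs, 6 classes in 1 fit, no term for the dog). DESeq2 1.42.0 was an alternative (R 4.3.3). Gate markers and the 6 genes were left out of the counts of calls. The fit was tested on simulated counts of 11964 genes, 200 of them shifted by 2 on the log2 scale, and recovered 74.5% with 4 false calls for Müller glia over rods, and 59.5% with 7 for cones over rods. The simulated sums were drawn independently, with 1 fixed dispersion for all genes and no effect of the dog. The data differ in this, so these figures do not measure recovery or false calls in the data. Sums of the same dog share an animal, so the dog is the pairing, which the main fit left out and the fit with a replicate block took in. Deviations of the classes of a dog correlated between 0.586 and 0.821. Genes named were the 6, the 5 most like each by the lower Pearson r of both dogs on log2(UMIs per 10000 + 0.1), and genes of the lipid lists with an adjusted p under 0.05. No separate cultures or libraries within a dog exist, so p-values rest on the spread between 2 dogs.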

Additional observations from a re-analysis of the deposited data

How the results depend on the processing

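With other limits on cells, gates and scalings, 126 of 156 recomputed levels of *CLU*, *CLUL1*, *APOE* and *ABCA1* moved by less than the spread between the dogs. *APOA1* and *APOD* are not in this count, as they were recomputed in N350 only. In the alternative fits, no log2 fold change of the lipid transport genes called above changed its sign. Of ratios between classes, only *CLUL1* in rods over Müller glia and over cones and *CLU* in Müller glia over rods were recomputed. The shifts that bear on the main comparisons follow, as means of both dogs unless a dog is named. At most 5% mitochondrial UMIs raised *CLU* in Müller glia to 51.4 and its ratio of Müller glia to rods to 110 (45.3 in the report's setting), and under 5% on MT- names the ratio was 91.5. *CLUL1* in cones, 0.880, became 2.15 at up to 10% mitochondrial UMIs, 0.851 with 1 more marker, 0.703 without the top Scrublet scores, 0.762 in cells of at least 1000 UMIs and 1.33 as a mean over cells. The fold of rods over cones (29.0) was 13.9 at up to 10% mitochondrial UMIs. The stricter limits left no cones of N354 and give no value for them. *APOD* in horizontal cells of N350 was 0.244 at up to 10%, and *APOA1* in endothelial cells of N350 was 81.0 as a mean over cells. After the data were seen, mixed cells were also given to their top list, which put *CLUL1* in cones at 1.83, rods over cones at 13.5 and *APOA1* at 96.7, and the class past the endothelial or pericyte list and no other, which lacks 3 of the 6 highest cells, put *APOA1* at 237. Thinned to 1000 UMIs, shares of cells with a UMI were 8.08% for *CLUL1* in cones (19.6% before), 96.5% for *CLU*, 78.9% for *APOE* and 0.805% for *ABCA1* in Müller glia. The cause of these shifts was not tested.

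With the dog as a replicate block, 6 genes of lipid transport were higher and 10 lower for Müller glia over rods, and 2 and 6 for cones over rods. Of all 11888 genes tested, 3699 and 2656, and 1152 and 936, were called. DESeq2 called 1806 and 882 of 11198 genes for Müller glia and 464 and 146 for cones, and 1 lipid gene lower for cones, and its size factors moved the median log2 fold change of all genes for cones from -0.18 to -0.06. At up to 10% mitochondrial UMIs 24 genes were lower in cones. With 1 dog left out no test remains, and TMM-scaled log2 ratios of the single dogs ran from 4.34 to 8.30 for *CYP27A1* (1 UMI in the rods of N354), 3.14 to 4.63 for *NPC2*, 3.11 to 3.20 for *PLTP*, -3.32 to -2.89 for *APOC1*, -2.80 to -2.75 for *ABCG4* and 6.07 to 7.04 for *LRP2*. *APOD* rested on 2 UMIs in N354, and few single cells showed *ABCA1*. The cause of the difference in *APOD* between the dogs was not tested.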

Other observations

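Within Müller glia of at least 5000 UMIs, the *CLUL1* level of single cells went along with that of *APOC1*, the apolipoprotein transcript of photoreceptors described above. The Spearman correlation was 0.510 over 607 cells of N350 and 0.627 over 304 cells of N354. In astrocyte-like cells of that depth it was 0.507 over 86 cells and 0.561 over 20 cells. In rods of at least 1000 UMIs it was 0.234 and 0.201, and in cones of at least 5000 UMIs -0.01 over 140 cells and -0.27 over 62. The cells of 1 dog share a library and a cell total, so these values are a description.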
